A study of Mus musculus with 12 samples.

Results

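The 46 genes described here encode assembly factors of the mitochondrial respiratory chain: proteins that help to build complexes I to V but are not part of the finished enzymes. They were chosen by name, not by a measured value, though with earlier results of these data known. Each symbol was matched to the gene symbols of the deposited count table. All 46 were found among the 32285 genes of that table, with 14 factors for complex I, 4 for complex II, 6 for complex III, 19 for complex IV and 3 for complex V, the ATP synthase.

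RNA was sequenced from the nucleus pulposus, the soft gelatinous centre of each intervertebral disc, dissected from tail discs of 12 mice on a C57BL/6-129/SvEv background at 12 months of age. In the Opa1cKO mice, Opa1 had been deleted at 3 months of age with AcanCre, a tamoxifen-activated Cre recombinase made by cells of disc and cartilage that express aggrecan, so that cells without aggrecan keep the gene, and the mice were aged for 9 more months. WT mice received the same tamoxifen, 100 mg/kg on 3 consecutive days, and whether they carry Cre or floxed alleles is not given. Each of the 6 WT and 6 Opa1cKO libraries came from a different mouse, with 4 females and 2 males labelled in WT and 2 females and 4 males in Opa1cKO.

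Each respiratory complex is put together from many subunits and, in complexes I, III, IV and V, from subunits made in both the cytosol and the mitochondrion. Assembly factors hold unfinished modules in the inner membrane, insert iron-sulfur clusters, haem, flavin and copper, and hand modules on to the next step. Opa1 is the inner membrane GTPase that fuses inner membranes and shapes the cristae in which the complexes sit, and the series asks how its loss alters the transcriptome of this tissue. The nucleus pulposus has no blood vessels of its own and is known for relying largely on glycolysis.

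Sex-linked reads went against the labelled sex in 4 of the 12 libraries. WT 4, labelled female, had 15816 reads of Y-linked genes and an Xist level of 0.497 CPM (read counts brought to a common library size with TMM factors), as a male would. WT 5 and WT 6, labelled male, had Xist at 4183 and 4382 CPM with 2 Y-linked reads each, and Opa1cKO 4, labelled male, had Xist at 4397 CPM with 0 Y-linked reads. By reads, the males are therefore WT 4 and Opa1cKO 1, 2 and 3. The comparison was fitted with labelled sex as a covariate. Each call is also given with sex taken from the reads and without these 4 libraries. Removing them leaves WT 1 to 3, all female, against 3 male and 2 female Opa1cKO mice. The reduced fit keeps labelled sex, and all its males are Opa1cKO. Its genotype estimate therefore compares WT 1 to 3 with Opa1cKO 5 and 6.

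Opa1 was measured at 69.3 to 118 CPM (median 107.5) in WT and at 30.2 to 47.7 CPM (median 40.8) in Opa1cKO. The ranges do not overlap, and the log2 fold change, here and below Opa1cKO over WT, was -1.22 ± 0.116 (SE; edgeR quasi-likelihood test, adjusted p = 3.05e-05). Library totals ran from 45657321 to 53261644 counts in WT and from 37268242 to 56618266 in Opa1cKO and were not detectably different (two-sided exact permutation p = 0.502, n = 6 per genotype). Markers of the nucleus pulposus and notochord (9 of 10 tested, 0 called) summed to 34590 to 46790 CPM in WT and 27350 to 49510 in Opa1cKO. Chondrocyte markers (8 of 8 tested, 0 called) summed to 12040 to 18840 and 7458 to 19250 CPM. Car3 alone averaged 28950 CPM in WT and 30380 in Opa1cKO, and Acan 13060 and 8628, so each sum is mostly 1 gene. Of the 9 nucleus pulposus and notochord markers, 5 estimates were positive and 4 negative. The lowest was that of Foxa2 (log2 change -1.08, edgeR adjusted p = 0.106). Macrophage markers summed to 105 to 197 CPM in WT and 97.1 to 117 in Opa1cKO, with 1 of 5 tested higher and 2 lower, and osteoblast and bone markers to 2.60 to 8.26 and 1.39 to 2.53 CPM, with 1 of 3 lower. The lists for fibroblasts, endothelium, skeletal muscle, neutrophils, keratinocytes and nerve had 0 called, and none of the adipocyte or erythroid markers had enough counts to be tested. Their part in the results below was not tested. In bulk tissue, fewer cells of a type cannot be told apart from less RNA per cell.

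Messenger RNA of the assembly factors differed little between the genotypes. Of the 45 genes with enough counts to be tested, 3 were higher in Opa1cKO (Foxred1 of complex I, Ttc19 of complex III and Cox15 of complex IV) and 1 was lower (Coa5 of complex IV), at an adjusted p below 0.05. That is 8.89% of the 45, beside 10.2% called among all 15229 genes tested (5.1% higher and 5.13% lower), so the share called is near the background. The 3 rises were of 1.27-fold, 1.27-fold and 1.23-fold, and Coa5 fell to 0.79 of the WT level. Estimates had both signs in about equal numbers, with 23 positive and 22 negative, from -0.44 for Tmem126b to 0.63 for Ndufaf4 on the log2 scale. Their median was 0.02, against 0.01 over all genes tested. With sex taken from the reads 2 genes passed (Cox15 and Coa5, 4.44%, beside 11.7% of all genes), and without the 4 libraries of contradicted sex 0 passed, beside 2.07% of all genes.

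The absolute log2 change had a median of 0.17 for the assembly factors and 0.18 for all genes. Over the 9348 tested genes with a mean between the lowest and highest assembly factor, 2.62 and 90.7 CPM, it was 0.16, and 10.5% of those genes were called. For 44 of the 45 the 95% confidence interval of the fold change lay within 2-fold either way, and for 36 within 1.5-fold. The exception to the first count was Ndufaf4, whose interval reached 1.36 on the log2 scale. Unadjusted p-values below 0.05 were found for 10 of the 45 assembly factors and for 25.2% of all genes. WT and Opa1cKO ranges were fully apart for 1 gene that was higher, Cox15 (beside 2.77% of all genes), and 1 that was lower, Coa5 (beside 3.64%), 2 of 45 in all beside 6.41%.

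**Figure D1:**
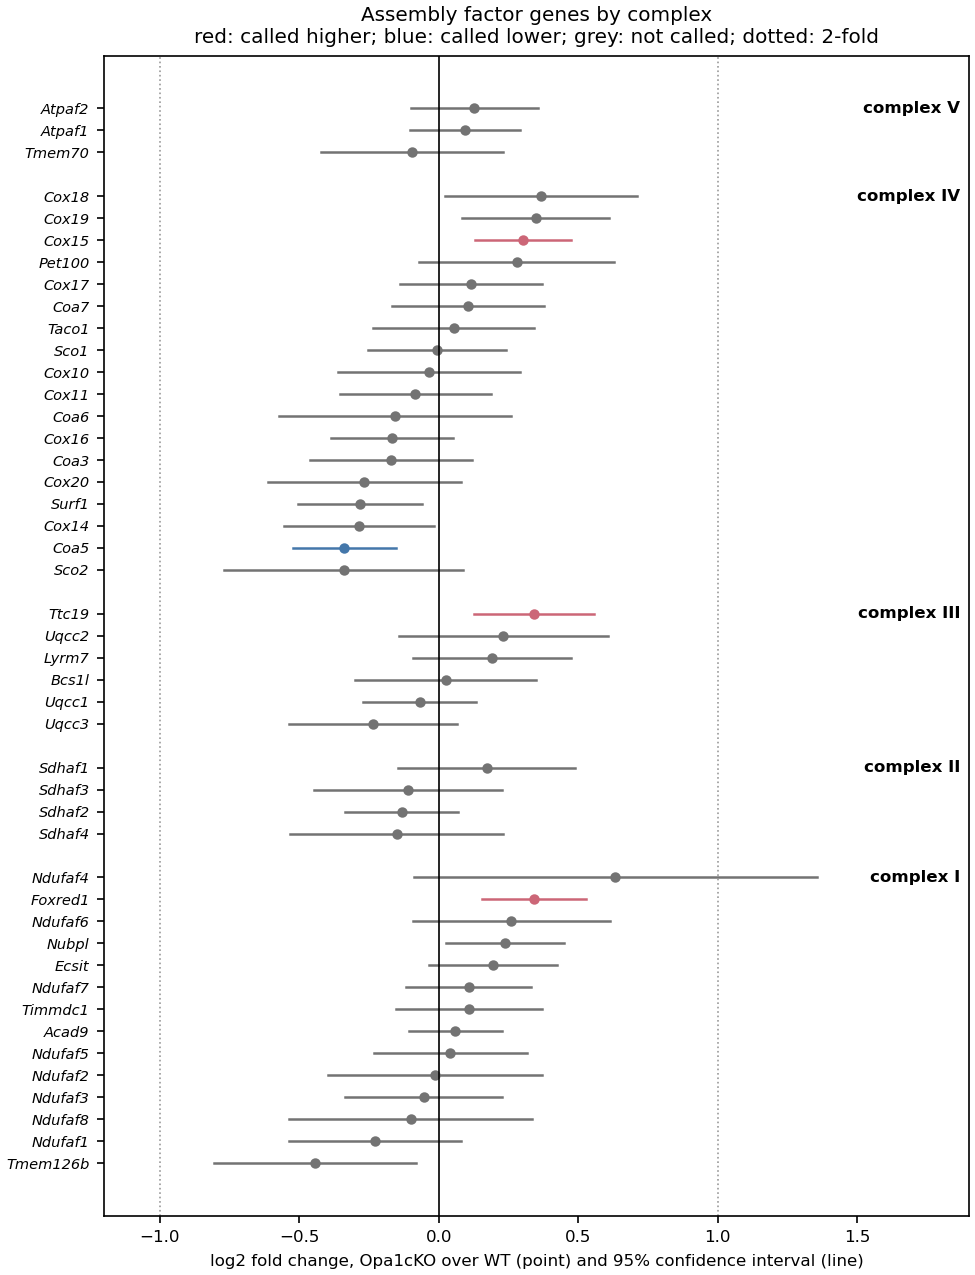
Log2 fold change (Opa1cKO over WT, horizontal axis) of the 45 tested assembly factor genes, by complex; points are edgeR estimates, lines their 95% confidence intervals and dotted lines 2-fold either way. Foxred1, Ttc19 and Cox15 (red) and Coa5 (blue) passed the test, and the interval of Ndufaf4 alone crosses 2-fold.

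Foxred1 encodes an oxidoreductase-like protein needed for complex I assembly. It was measured at 22.8 to 28.6 CPM (median 24.9) in WT and at 27.4 to 34.1 CPM (median 31.6) in Opa1cKO. The ranges meet only where Opa1cKO 4 (27.4 CPM) falls to the level of WT 2 (27.4) and below WT 4 (28.6). Its mean rose from 25.3 ± 2.41 to 31.3 ± 2.24 CPM (SD, n = 6 each), a log2 change of 0.34 ± 0.0876 (SE, edgeR adjusted p = 0.0248). The call was lost with sex taken from the reads (0.26, edgeR adjusted p = 0.0538), with the 4 libraries of contradicted sex removed (0.31, adjusted p = 0.217), and on leaving out WT 5, WT 6 or Opa1cKO 6 (adjusted p up to 0.0887).

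Cox15 encodes the enzyme that makes haem A, the haem found in cytochrome c oxidase, from the haem O that Cox10 makes. It was measured at 30.5 to 34.8 CPM (median 33.5) in WT and at 36.5 to 45.5 CPM (median 40.7) in Opa1cKO. Every Opa1cKO library lay above every WT library, with Opa1cKO 4 the lowest of the 6 and Opa1cKO 1 the highest. The mean rose from 33.0 ± 1.56 to 40.6 ± 3.59 CPM (SD, n = 6 each), a log2 change of 0.30 ± 0.0805 (SE, edgeR adjusted p = 0.0300). With sex taken from the reads the call held (0.27, edgeR adjusted p = 0.0377). Without the 4 libraries it was lost (0.31, edgeR adjusted p = 0.234), as it was among the libraries that are female by their reads. It was lost too on leaving out WT 2, WT 5, WT 6, Opa1cKO 1 or Opa1cKO 6 (edgeR adjusted p up to 0.102) and with no low-count filter (adjusted p = 0.0545). Of its 4909 exonic bases, 444 lie opposite exons of Entpd7 (0.47, edgeR adjusted p = 0.114), and since the strand setting of the counts is not given, reads of that stretch cannot be assigned to one gene. Cox10 itself averaged 10.4 ± 1.70 CPM in WT and 10.6 ± 1.93 in Opa1cKO, with a log2 change of -0.04 (edgeR adjusted p = 0.915).

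Ttc19 encodes a tetratricopeptide protein that removes fragments of the Rieske iron-sulfur protein from complex III. WT libraries held it at 28.6 to 41.2 CPM (median 37.2) and Opa1cKO libraries at 41.0 to 54.1 (median 43.7). The ranges touch at their ends, with Opa1cKO 2 (41.0) just under WT 2 (41.2), and Opa1cKO 6 stands alone at 54.1. Means were 36.2 ± 4.52 and 45.0 ± 4.64 CPM (SD, n = 6 each), a log2 rise of 0.34 ± 0.10 (SE, edgeR adjusted p = 0.0450). This call was the least stable of the 4: it held in 4 of the 12 refits that leave out 1 library, those without WT 1, WT 2, WT 5 or Opa1cKO 3, and without Opa1cKO 6 the log2 change was 0.26 (edgeR adjusted p = 0.195). It was also lost with sex taken from the reads (0.33, edgeR adjusted p = 0.0525) and without the 4 libraries (0.48, adjusted p = 0.149). In all it was lost in 20 of 31 alternatives, among them upper quartile scaling (adjusted p = 0.0526), no low-count filter (0.052), limma-voom quality weights (0.0526) and the 3 TPM fits (0.0823 to 0.122).

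Coa5, a small protein of the intermembrane space needed at an early step of cytochrome c oxidase assembly, was the one assembly factor called lower. It was measured at 94.7 to 113 CPM (median 98.1) in WT and at 70.7 to 93.5 CPM (median 78.9) in Opa1cKO. No Opa1cKO library reached the lowest WT library, Opa1cKO 3 being nearest and Opa1cKO 6 farthest. The mean fell from 100.9 ± 7.48 to 80.5 ± 7.90 CPM (SD, n = 6 each), a log2 change of -0.34 ± 0.0863 (SE, edgeR adjusted p = 0.0236). With sex taken from the reads the call held (-0.36, edgeR adjusted p = 0.0140). Among the 8 libraries that are female by their reads it held too (-0.45, edgeR adjusted p = 0.0183), unlike the calls of Foxred1, Ttc19 and Cox15. On removing the 4 libraries of contradicted sex it was -0.54 (edgeR adjusted p = 0.0592), and it was lost without Opa1cKO 5 (-0.32, adjusted p = 0.0536) or Opa1cKO 6 (-0.28, adjusted p = 0.105).

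**Figure D2:**
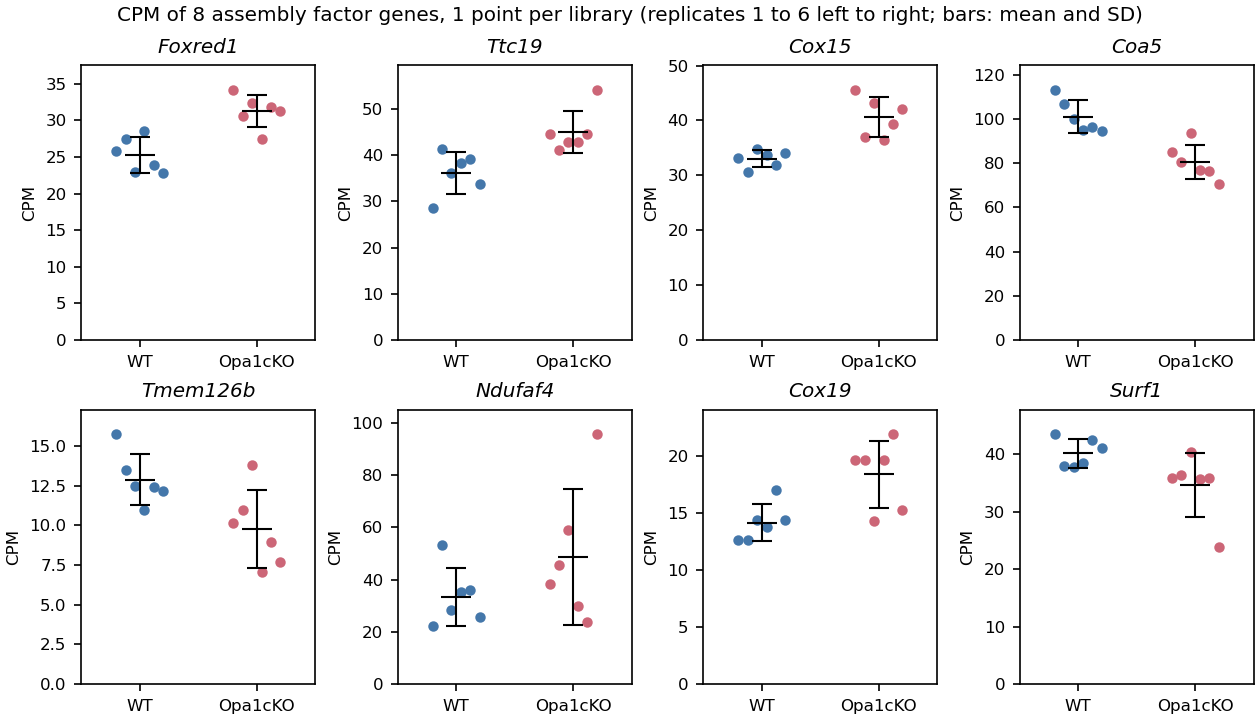
CPM (vertical axes, each from 0) of 8 assembly factor genes in the 6 WT and 6 Opa1cKO libraries, 1 point per library from replicate 1 on the left to 6 on the right, with bars for the mean and SD. The genotypes separate fully for Cox15 and Coa5, Opa1cKO 6 stands apart for Ttc19, Ndufaf4 and Surf1, and the other genes overlap.

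In the mm10 assembly, Foxred1 (ENSMUSG00000039048) lies on the minus strand at chr9:35204206-35211055, Ttc19 (ENSMUSG00000042298) on the plus strand at chr11:62281473-62328451, Cox15 (ENSMUSG00000040018) on the minus strand at chr19:43733254-43753000 and Coa5 (ENSMUSG00000026112) on the minus strand at chr1:37417084-37430103. All are annotated as protein-coding. The promoters of these 4 genes are shown because they are the members that passed the test. Each runs 5′ to 3′ on the gene's strand from 250 bases before to 50 bases after the RefSeq start (GRCm38.p6), at chr9:35211006-35211305, chr11:62281223-62281522, chr19:43752951-43753250 and chr1:37430054-37430353 in the same order. Capitals mark matches to 5 motifs searched on both strands, given further on.
Foxred1: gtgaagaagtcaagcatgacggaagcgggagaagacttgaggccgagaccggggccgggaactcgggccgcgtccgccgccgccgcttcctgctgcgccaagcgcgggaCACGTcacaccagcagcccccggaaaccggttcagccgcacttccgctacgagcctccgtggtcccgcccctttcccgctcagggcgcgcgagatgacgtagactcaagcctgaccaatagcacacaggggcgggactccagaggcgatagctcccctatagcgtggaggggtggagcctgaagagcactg
Ttc19: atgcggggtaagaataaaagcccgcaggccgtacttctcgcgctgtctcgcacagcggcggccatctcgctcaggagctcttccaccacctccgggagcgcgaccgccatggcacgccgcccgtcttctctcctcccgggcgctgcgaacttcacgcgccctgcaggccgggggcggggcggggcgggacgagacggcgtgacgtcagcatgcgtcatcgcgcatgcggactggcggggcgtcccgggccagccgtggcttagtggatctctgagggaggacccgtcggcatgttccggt
Cox15: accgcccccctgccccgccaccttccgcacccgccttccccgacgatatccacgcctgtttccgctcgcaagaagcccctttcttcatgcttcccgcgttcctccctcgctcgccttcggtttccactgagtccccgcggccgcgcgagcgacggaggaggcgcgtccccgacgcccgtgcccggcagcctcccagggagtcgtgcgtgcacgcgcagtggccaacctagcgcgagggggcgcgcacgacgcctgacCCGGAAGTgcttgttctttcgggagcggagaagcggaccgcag
Coa5: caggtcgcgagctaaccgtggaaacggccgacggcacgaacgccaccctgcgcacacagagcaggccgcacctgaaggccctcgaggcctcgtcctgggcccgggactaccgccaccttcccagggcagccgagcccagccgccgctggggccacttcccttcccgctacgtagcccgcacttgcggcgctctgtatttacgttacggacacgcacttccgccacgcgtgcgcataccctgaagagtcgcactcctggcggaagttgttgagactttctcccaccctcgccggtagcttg

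The capitals in Foxred1 are the core letters of a HIF element read on the other strand, and those in Cox15, in the 50 bases after the start, are a GABP (ETS) element. The windows of Ttc19 and Coa5 hold none of the 5 motifs. These windows are rich in CpG, with 31 CpG in Foxred1, 40 in Ttc19, 42 in Cox15 and 33 in Coa5, against a median of 8 over all 27025 promoters in the table. A promoter was found for 40 of the 46 assembly factors, with a median of 22.5 CpG and 61.7% G and C, against 53.3% G and C over all promoters.

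The NRF1 element (GCGCA, any base, then GCGC) was found in 5 of the 40, those of Ndufaf4, Ndufaf5, Sdhaf3, Sdhaf4 and Uqcc2, 12.5% against 5.19% of all promoters. The GABP element (CCGGAAGT) was found in 6 (Timmdc1, Bcs1l, Cox10, Cox14, Cox15 and Cox16), 15% against 4.31%. The YY1 element (AANATGGCG) was found in 6 (Ndufaf8, Tmem126b, Sdhaf2, Cox10, Coa3 and Atpaf2), 15% against 2.76%. NRF1, GABP and YY1 are factors known for binding promoters of nuclear genes of the respiratory chain. The HIF core (ACGTG) was found in 14 of the 40, 35% against 21.8%, and the ERR element (TCAAGGTCA) in 0 against 0.466%. A match of one motif was counted whether or not another overlapped it. These shares are descriptions of the letters in windows that are richer in CpG than most.

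Another feature of the assembly factors is a gene that starts close by on the opposite strand. Within 1000 bases of the start, 15 of the 45 tested assembly factors (33.3%) had such a head-to-head protein-coding gene, against 2155 of 13253 tested protein-coding genes (16.3%). Of the 15 partners, 1 was called, beside 10.2% of all genes. That was Ercc8, a DNA repair gene that starts 108 bases from Ndufaf2 (0.44 ± 0.120 SE, edgeR adjusted p = 0.0307). Ndufaf2 itself had a log2 change of -0.01 (edgeR adjusted p = 0.973). The partners of 3 called assembly factors were not called. Zswim7, 98 bases from Ttc19, had a log2 change of 0.17 (edgeR adjusted p = 0.443), Cutc beside Cox15 one of 0.07 (adjusted p = 0.839), and Unc50, 36 bases from Coa5, one of -0.09 (adjusted p = 0.516). Foxred1 had no partner in that window. The assembly factor genes are spread over 16 chromosomes.

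For complex I, the log2 changes of the 14 factors had a median of 0.08, with 1 higher (Foxred1), 0 lower and 9 positive. Tmem126b, Ecsit, Acad9 and Ndufaf1 form the membrane-bound complex on which part of the membrane arm is built, and their estimates had both signs. Tmem126b was at 10.99 to 15.7 CPM (median 12.5) in WT and at 7.07 to 13.8 CPM (median 9.55) in Opa1cKO. Opa1cKO 3 (13.8) lay inside the WT range, Opa1cKO 2 (10.99) at its lower end and the other Opa1cKO libraries below it, and WT 1 was the highest of all 12. The log2 change of -0.44 ± 0.169 (SE) did not pass (edgeR adjusted p = 0.113), and it passed without Opa1cKO 3 and in the libraries that are female by their reads. Ndufaf1 had -0.23 (edgeR adjusted p = 0.345), Ecsit 0.19 (adjusted p = 0.281) and Acad9 0.06 (adjusted p = 0.685).

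Ndufaf3 and Ndufaf4 work together on the early module that receives electrons for ubiquinone. Ndufaf4 had the largest estimate of the 45, 0.63 ± 0.331 (SE), but did not pass (edgeR adjusted p = 0.261). It was at 22.4 to 53.3 CPM (median 32.0) in WT and at 23.9 to 95.6 CPM (median 41.8) in Opa1cKO. Opa1cKO 3 and Opa1cKO 6 lay above every WT library, and the other 4 Opa1cKO libraries lay inside the WT range. Leaving out single libraries moved its estimate between 0.13 and 0.87. Ndufaf3 had a log2 change of -0.05 (edgeR adjusted p = 0.842).

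Nubpl, which carries iron-sulfur clusters to complex I, was at 9.45 to 12.2 CPM (median 10.4) in WT and 11.2 to 13.1 CPM (median 11.9) in Opa1cKO. WT 4 (12.2) alone among the WT libraries reached into the Opa1cKO range. Its log2 change was 0.24 ± 0.0991 (SE, edgeR adjusted p = 0.151). Ndufaf5, which hydroxylates a subunit of the matrix arm, and its partner Ndufaf8 had log2 changes of 0.04 and -0.10 (edgeR adjusted p = 0.882 and 0.801), and Ndufaf7, which methylates another, 0.11 (adjusted p = 0.563). Timmdc1, a factor of the membrane arm, had 0.11 (edgeR adjusted p = 0.632), Ndufaf6 0.26 (adjusted p = 0.347), and Ndufaf2, which acts at a late step, -0.01 (adjusted p = 0.973). Most exonic bases of Ndufaf2 lie opposite exons of B230220B15Rik.

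None of the 4 factors of complex II, succinate dehydrogenase, passed, and their median log2 change was -0.12. Sdhaf2 and Sdhaf4 serve the flavin-bearing subunit. Sdhaf2 was at 28.8 to 36.6 CPM in WT and 26.8 to 34.1 in Opa1cKO (-0.13, edgeR adjusted p = 0.408), and Sdhaf4 at 5.43 to 7.03 and 4.05 to 8.46 CPM (-0.15, adjusted p = 0.645). Sdhaf1 and Sdhaf3 serve the iron-sulfur subunit. Sdhaf1 was at 5.60 to 7.07 CPM in WT and 5.57 to 8.92 in Opa1cKO (0.17, edgeR adjusted p = 0.511), and 1733 of its 2490 exonic bases lie opposite exons of E130208F15Rik. Sdhaf3 was at 8.43 to 14.5 and 8.20 to 12.6 CPM (-0.11, edgeR adjusted p = 0.707). The genotype ranges of all 4 genes overlap.

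For complex III, Ttc19 was the 1 call among 6 factors, whose median log2 change was 0.11. Uqcc1, Uqcc2 and Uqcc3 guard newly made cytochrome b. Uqcc2 was at 13.9 to 25.1 CPM (median 20.4) in WT and 18.6 to 32.4 CPM (median 25.9) in Opa1cKO, with Opa1cKO 1, 2 and 4 above every WT library. Its log2 change was 0.23 ± 0.175 (SE, edgeR adjusted p = 0.441), while Uqcc1 had -0.07 (adjusted p = 0.701) and Uqcc3 -0.24 (adjusted p = 0.316). Lyrm7 and Bcs1l bring in the Rieske iron-sulfur protein. Lyrm7 had a log2 change of 0.19 (edgeR adjusted p = 0.399) and Bcs1l one of 0.02 (adjusted p = 0.942).

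Of the 19 factors of complex IV, cytochrome c oxidase, 18 were tested, with 1 higher (Cox15), 1 lower (Coa5), 7 positive and 11 negative, and a median of -0.06. Among the factors of copper delivery, Cox19 was at 12.6 to 17.0 CPM (median 14.0) in WT and 14.3 to 21.8 CPM (median 19.6) in Opa1cKO. Opa1cKO 1, 2, 4 and 5 lay above every WT library and Opa1cKO 3 and 6 inside the WT range. The log2 change of 0.35 ± 0.123 (SE) did not pass (edgeR adjusted p = 0.0906). It did pass with no labelled sex term, with 1 surrogate variable, with limma-voom quality weights and without Opa1cKO 3 (adjusted p from 0.0255 to 0.0449 in these 4 fits). The other copper factors had log2 changes of 0.12 (Cox17), -0.01 (Sco1), -0.34 (Sco2), -0.08 (Cox11) and -0.16 (Coa6), with edgeR adjusted p from 0.307 to 0.976. Most exonic bases of Sco2 also lie in exons of Tymp on the same strand, and most lie opposite exons of Ncaph2. For Cox11, 688 of 1423 exonic bases lie opposite exons of Tom1l1. As for Cox15, reads of such stretches cannot be assigned to one gene.

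Surf1, which helps to place haem A in the enzyme, was at 37.7 to 43.4 CPM (median 39.8) in WT and 23.9 to 40.5 CPM (median 35.9) in Opa1cKO. Opa1cKO 3 lay within the WT range, and the other Opa1cKO libraries lay below it, Opa1cKO 6 at 23.9. The log2 change was -0.28 ± 0.104 (SE, edgeR adjusted p = 0.0992), and at the threshold of 0.05 it passed in 1 refit, that without Opa1cKO 5 (adjusted p = 0.0497). Cox14 and Coa3 bind newly made Cox1 protein. Cox14 had a log2 change of -0.29 ± 0.125 (SE, edgeR adjusted p = 0.170), with Opa1cKO 6 at 16.9 CPM against 24.4 to 32.2 in WT, and Coa3 one of -0.17 (adjusted p = 0.465). Taco1, which activates translation of Cox1, had 0.05 (edgeR adjusted p = 0.849).

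Cox18 and Cox20 handle the Cox2 protein as it enters the membrane. Cox18 was at 5.29 to 8.20 CPM (median 6.68) in WT and 6.81 to 11.4 CPM (median 8.44) in Opa1cKO, with the ranges overlapping. Its log2 change was 0.37 ± 0.160 (SE, edgeR adjusted p = 0.167), and that of Cox20, most of whose exonic bases lie opposite exons of Hnrnpu, was -0.27 (adjusted p = 0.325). Pet100 had 0.28 (edgeR adjusted p = 0.308), Cox16 -0.17 (adjusted p = 0.323) and Coa7 0.10 (adjusted p = 0.655). Most exonic bases of Pet100 lie opposite exons of Pcp2. Most of those of Cox16 also lie in exons of Gm20498 on the same strand. Overlaps that take a minority of the exonic bases of other members are not all listed. Pet117 had 0 counts and 0 TPM in all 12 libraries and was not tested. All 693 of its annotated exonic bases also lie in exons of Kat14 on the same strand, and Kat14 was measured at 19.4 ± 1.68 CPM in WT and 18.0 ± 1.47 in Opa1cKO. Whether Pet117 is transcribed in this tissue cannot be read from that 0.

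None of the 3 factors of complex V passed. Atpaf1 and Atpaf2 hold the beta and alpha subunits of the catalytic head, and Tmem70 serves the membrane ring. Atpaf1 was at 13.8 to 17.6 CPM in WT and 15.6 to 18.7 in Opa1cKO (0.09, edgeR adjusted p = 0.570), and 843 bases of it match the pseudogene Gm14117. Atpaf2 was at 10.1 to 13.3 and 11.2 to 13.6 CPM (0.13, edgeR adjusted p = 0.492). Tmem70 was at 13.6 to 21.1 and 13.3 to 20.9 CPM (-0.10, edgeR adjusted p = 0.742).

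**Figure D3:**
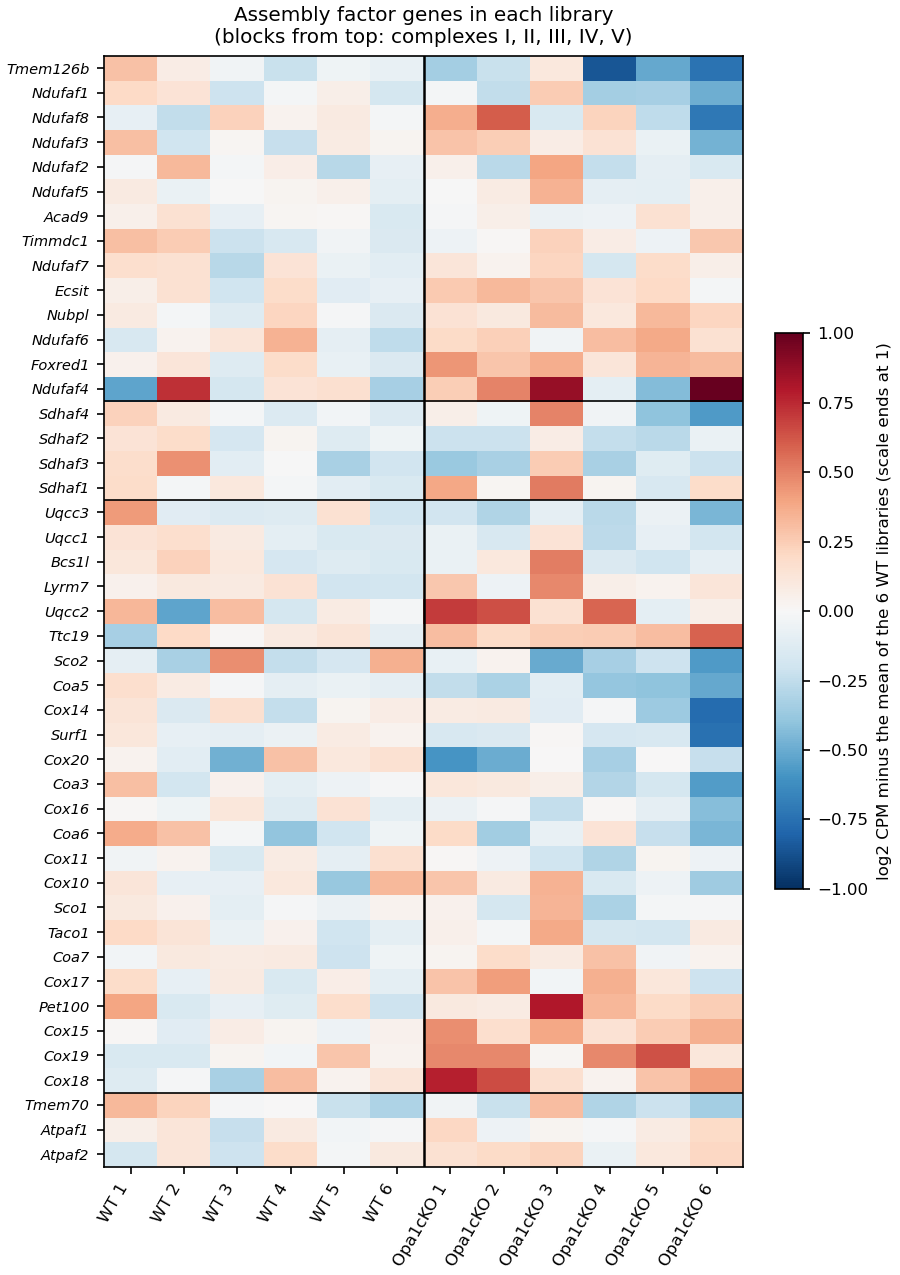
Log2 CPM of the 45 tested assembly factor genes in each library minus the mean of the 6 WT libraries (colour, red above and blue below), with genes in blocks for complexes I to V from the top. Most cells are pale; Opa1cKO 3 is red over many genes and Opa1cKO 6 blue over many, with Tmem126b, Ndufaf8, Cox14 and Surf1 among its deepest.

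Single libraries stood out over many assembly factors at once. WT 1 was the highest WT library for 19 of the 45 genes (42.2%), while over all genes tested it was the highest for 20.7%. Opa1cKO 3 was the highest Opa1cKO library for 21 of 45 (46.7%, against 26% of all genes). Opa1cKO 6 was the lowest Opa1cKO library for 16 of 45 (35.6%, against 20.9% of all genes), although it was the highest for Ttc19 and Ndufaf4. WT 1 and Opa1cKO 3 also had the largest totals of their genotypes, 53261644 and 56618266 counts. Opa1cKO 6 had the lowest summed nucleus pulposus markers, 27350 CPM (mostly Car3), and the highest summed chondrocyte markers, 19250 CPM (mostly Acan). Neither was tested as a part of these patterns. The genes together took 0.0694% to 0.0787% of counts in WT and 0.0708% to 0.0845% in Opa1cKO. Without Opa1cKO 6, 0 of the 45 passed, beside 5.34% of all genes, and without WT 6 the 3 rises were lost and Coa5 passed.

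Whether the genotype difference itself differed between labelled sexes was asked with a genotype by labelled sex term. It passed for 0 of the 45 assembly factors and 0 of 15229 genes (0% called; edgeR), with an unadjusted p below 0.05 for 3 of the 45 and 5.9% of all genes, and 0 of the 45 passed with DESeq2 or limma-voom. The count of 3 rested on single libraries: it was 0 without Opa1cKO 6 (beside 7.56% of all genes) and 7 without Opa1cKO 5 (beside 9.25%, with 22 genes and 0 assembly factors called). The smallest p-values were those of Tmem70 (difference in log2 change, labelled males minus labelled females, 0.65, edgeR adjusted p = 0.797), Sdhaf4 (0.75, adjusted p = 0.797) and Cox14 (0.50, adjusted p = 0.797). Within labelled females the log2 change was -0.42 for Tmem70, -0.53 for Sdhaf4 and -0.54 for Cox14, and within labelled males it was 0.23, 0.22 and -0.04. These are not contrasts within a sex as the reads show it. Both labelled WT males, WT 5 and WT 6, are female by their reads, as is Opa1cKO 4 among the labelled Opa1cKO males. WT 4, among the labelled females, is male by its reads. The term was positive for 35 of the 45 genes with a median of 0.22, and for 51.8% of all genes with a median of 0.02. With sex taken from the reads it was positive for 30 of 45 with a median of 0.19, and WT then holds a single male. The 45 terms come from the same 12 libraries and are not independent of each other.

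Levels of different genes were compared on the authors' TPM scale, which divides by transcript length. The 46 assembly factors had a median of 20.7 TPM over the WT means, and the 78 nuclear-encoded subunits of complexes I to V with a TPM value had a median of 80.3 TPM. Among the assembly factors the highest levels were those of Uqcc2 (110.2 ± 21.2 TPM in WT and 142.4 ± 34.0 in Opa1cKO, SD, n = 6), Surf1 (104.3 ± 5.66 and 91.0 ± 12.9 TPM) and Coa5 (87.9 ± 4.08 and 71.1 ± 5.89 TPM). The lowest of the tested genes was Ndufaf2, at 4.85 ± 0.700 TPM in WT and 4.75 ± 0.783 in Opa1cKO. By complex, the WT median was 22.5 TPM for complex I factors against 70.3 for its nuclear subunits, 16.0 against 115.3 for complex II and 31.5 against 121.7 for complex III. For complex IV it was 19.2 against 125.1 TPM, with Pet117 counted at 0 among the factors and the untested Cox6a2 at 0 among the subunits. For complex V it was 25.1 against 105.9, and that subunit list includes Atpif1, the inhibitor of the enzyme. The ranges of factors and subunits overlap, and the highest factors, Uqcc2, Surf1 and Coa5, lie above the median of all nuclear subunits.

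**Figure D4:**
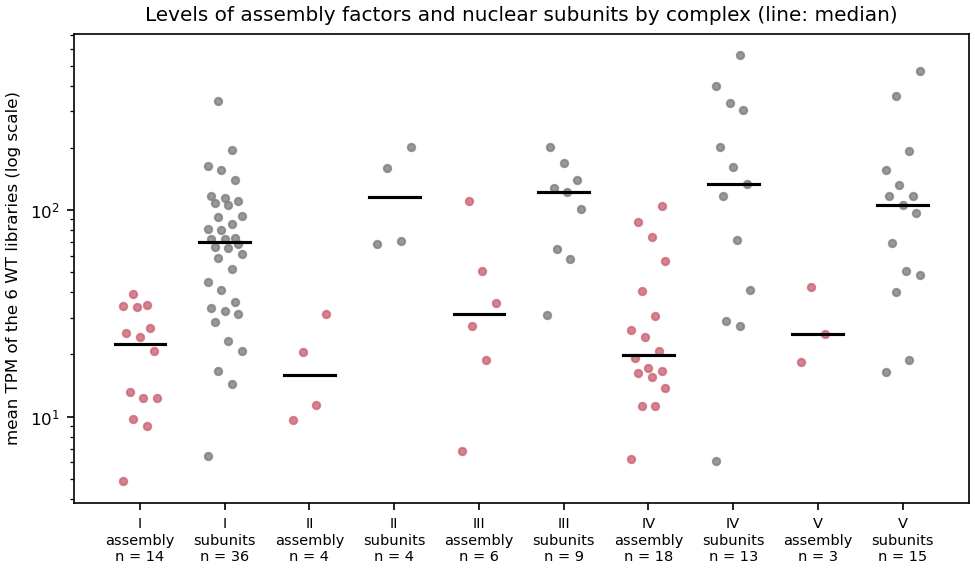
Mean TPM over the 6 WT libraries (vertical axis, log scale) of assembly factor genes (red) and nuclear-encoded subunits (grey) of each complex, 1 point per gene with a line at the median. Genes at 0 TPM cannot be drawn on this axis and are left out, so the complex IV lines leave out Pet117 and Cox6a2. In each complex the assembly factors' median lies below that of the subunits.

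The finished enzymes' own genes and the pathways that feed assembly were read from further lists. Of the 78 tested nuclear-encoded subunits of complexes I to V, 0 were higher and 1 was lower (1.28%, beside 10.2% of all genes), with a median log2 change of -0.02. The call was Ndufb5, a membrane arm subunit of complex I, with a log2 change of -0.32 (edgeR adjusted p = 0.0463). That call was lost on leaving out any 1 library other than WT 4, Opa1cKO 1 or Opa1cKO 3 (adjusted p up to 0.183, without Opa1cKO 6), and without the 4 libraries of contradicted sex (-0.47, adjusted p = 0.127). In the other complexes the subunits with the smallest p did not pass: Sdhb (0.23, edgeR adjusted p = 0.185) and Sdhd (-0.18, 0.445) of complex II, Uqcrh (-0.16, 0.475) and Uqcr10 (-0.10, 0.753) of complex III, Ndufa4 (0.45, 0.101) and Cox6c (0.22, 0.215) of complex IV, and Atp5f1 (-0.18, 0.390) and Atp5d (-0.23, 0.401) of complex V. By contrast, all 9 tested transcripts of the 13 protein-coding genes of mitochondrial DNA were lower, with a median of -4.30. The untested mt-Nd3, mt-Nd4l, mt-Atp6 and mt-Atp8 had at most 29 counts in any library. Of the 9, mt-Co2 and mt-Co3 had few counts, with means of 1.94 and 0.978 CPM in WT beside 1389 CPM for mt-Co1. In Opa1cKO they averaged 0.0434 and 0.0590 CPM, so the size of their falls is uncertain. The rule by which reads were counted is not given. Whether RNA of these and of the untested genes is scarce cannot be read from their counts and was not tested. The mt-Cytb transcript, for the core subunit that Uqcc1 to Uqcc3 guard, averaged 149.3 ± 44.5 CPM in WT and 8.0 ± 2.80 in Opa1cKO (-4.30, edgeR adjusted p = 3.39e-06).

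In Opa1cKO, mt-Co1, the transcript of the Cox1 protein that Cox14, Coa3 and Surf1 serve, was at 78.7 ± 37.3 CPM against 1389 ± 372.4 in WT (-4.30, edgeR adjusted p = 7.94e-06). The complex I transcripts mt-Nd5 and mt-Nd6 changed by -3.78 and -4.64 (edgeR adjusted p = 2.78e-06 and 8.12e-07). As counted, the mitochondrial transcripts took 0.109% to 0.227% of counts in WT and 0.00583% to 0.0165% in Opa1cKO.

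A further 16 assembly factors outside the 46 gave 0 calls, the smallest p being those of Tmem242, a factor of complexes I and V (-0.39, edgeR adjusted p = 0.0692), and Smim4, a factor of complex III (-0.43, adjusted p = 0.106). Among 28 genes that supply iron-sulfur clusters, haem and copper, 1 was higher and 0 lower (3.57%, beside 10.2% of all genes). Estimates were positive for 20 of the 28, beside 7903 of all 15229 genes tested. The call was Slc25a37, mitoferrin-1, which brings iron into the mitochondrion. It was at 12.9 to 28.4 CPM (median 15.0) in WT and 25.9 to 45.8 CPM (median 34.5) in Opa1cKO. That is a log2 change of 0.98 ± 0.211 (SE, edgeR adjusted p = 0.0113), with the ranges overlapping only at their ends. The other mitoferrin, Slc25a28, was not called (0.18, edgeR adjusted p = 0.338). A list of 15 genes for mitochondrial translation also holds factors of mitochondrial RNA that are not translation factors in a strict sense, Mterf3 among them. Of the 15, 1 was lower, Mrrf, which recycles ribosomes (-0.47, edgeR adjusted p = 0.0119), and 1 was higher, Mterf3 (0.31, adjusted p = 0.0413). Together they were 13.3% of that list, beside 10.2% of all genes. With the 4 libraries of contradicted sex removed, Slc25a37 still passed (edgeR adjusted p = 0.00591), and Mrrf and Mterf3 did not (adjusted p = 0.113 and 0.110). Mterf3 also lost its call on leaving out any 1 library other than Opa1cKO 2 or Opa1cKO 3.

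**Figure D5:**
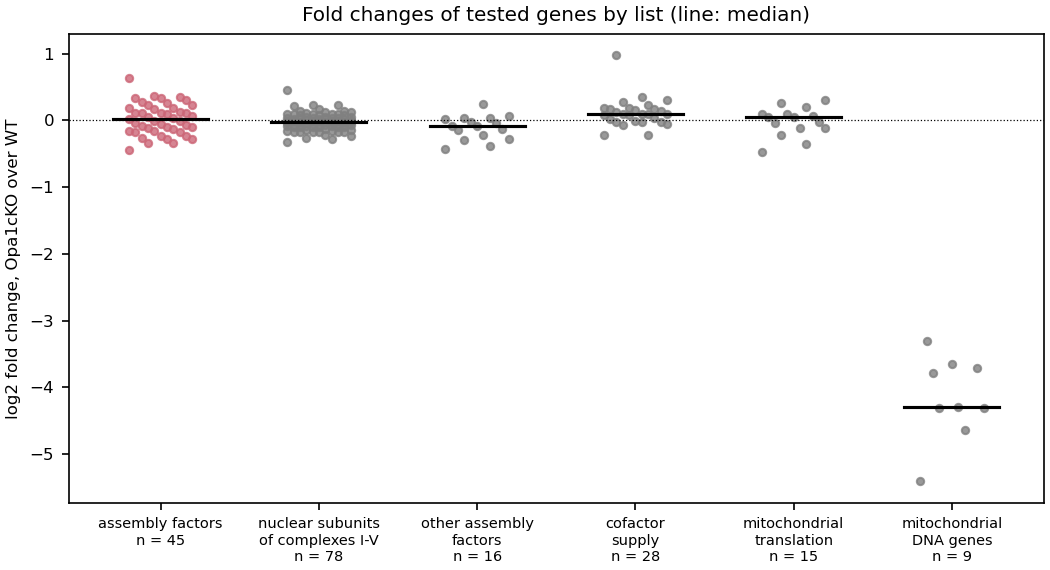
Log2 fold change (Opa1cKO over WT, vertical axis) of each tested gene in 6 lists, with a line at the median. The assembly factors and the other nuclear-encoded lists lie around 0, with Slc25a37 at 0.98, and the 9 genes of mitochondrial DNA lie between -5.41 and -3.30. The lowest, mt-Co2, had few counts in Opa1cKO.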

How the data were processed

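The authors deposited a table of whole-number read counts per gene (32285 genes) and a table of TPM values (32128 symbols) for the 12 libraries. STAR 2.7.11b and the mm10 build are named in the submitters' processing notes; which program counted reads, with what annotation and strand rule, is not given in the sources. Per the labels' protocols, stranded, ribosome-depleted libraries were made from 50 ng of RNA with 14 PCR cycles, so PCR copies cannot be told from molecules. Columns were matched to mice by their label names, and 0 sample columns stayed unmatched. Each library is a different mouse, and all pairs of libraries differed by more than sampling noise (smallest chi-square per degree of freedom 31.1). The test was edgeR 4.0.16 under R 4.3.3, with TMM factors and filterByExpr (minimum count 10, by genotype). Genotype was tested beside labelled sex by the robust quasi-likelihood method, p-values were adjusted by Benjamini-Hochberg across all 15229 tested genes, and genes below 0.05 were called. The fitting scripts were tested on simulated data. Assembly factors lie at counts of 88 to 5958 per library. Log2 TPM plus a pseudocount of 1 or 0.1 was tested with limma 3.58.1 as an alternative, beside DESeq2 1.42.0, 1 surrogate variable (sva 3.50.0), other scalings, filters, covariates and thresholds, and each library left out. The 8 libraries that are female by their reads were added after the data were seen. Gene positions, exon overlaps and head-to-head genes come from GENCODE M21, and promoters from RefSeq. The members, the gene lists and the tests were chosen with earlier results of these data known. Named were Opa1, every called member, the 4 uncalled members of each complex with the smallest p, the members of each complex with the highest and lowest TPM, the 3 with the smallest interaction p, any untested member, and up to 4 called genes of each further list or its 2 smallest p. Other members, Entpd7, Kat14, Hnrnpu, Slc25a28, Car3, Acan, Foxa2 and the head-to-head partners were named after their values were seen, to complete the groups.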

Additional observations from a re-analysis of the deposited data

Results flagged for a closer look

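Among 92 groups of 6 libraries (the 45 tested assembly factors and Opa1, in 2 genotypes), 5 held a library that lay far from the other 5, its gap to the nearest divided by the group's range being above Dixon's critical value for 6 values at 95%; chance alone gives about 1 in 20. Opa1cKO 3 was the high library for 3 of them: Sdhaf3 at 12.63 CPM (next 9.738, ratio 0.653), Bcs1l at 12.87 CPM (next 9.733, ratio 0.629) and Pet100 at 14.05 CPM (next 10.13, ratio 0.706). Opa1cKO 6 was the high library for Ttc19 at 54.05 CPM (next 44.65, ratio 0.723) and the low library for Surf1 at 23.95 CPM (next 35.65, ratio 0.708). Opa1cKO 3 had the largest total of the 12 libraries. Opa1cKO 6 had the lowest summed nucleus pulposus markers (mostly Car3) and the highest summed chondrocyte markers (mostly Acan). The part of the total or of the marker sums was not tested.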

How the results depend on the processing

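Against 3 assembly factors higher and 1 lower, the number higher was 1 when sex was taken from the reads (11.7% of all genes called, in either direction) and 1 with no low-count filter (6%). It was 0 in labelled females only (1.9% of all genes called), in labelled males only (2.64%), without the 4 libraries of contradicted sex (2.07%), in the Xist-positive libraries (7.09%; added after the data were seen) and at an adjusted p below 0.01. The number lower was 0 in labelled females only, in labelled males only, without the 4 libraries and at an adjusted p below 0.01, and 2 in the Xist-positive libraries and at an adjusted p below 0.1. Leaving out 1 library at a time gave 0 to 4 higher and 0 to 2 lower. The cause of these changes was not tested, beyond that several rest on fewer libraries. DESeq2, limma-voom, other scalings and TPM values gave 2 or 3 higher and 1 lower; no labelled sex term (13.3% of all genes called) and 1 surrogate variable (15.2%) gave 4 higher and 1 lower, and an adjusted p below 0.1 gave 4 higher. The same replicate numbers occur in both genotypes, but the numbers do not pair the mice: correlations of same-numbered libraries ran from -0.333 to 0.125. With the replicate number as a block, 0 were higher and 0 lower, beside 5.05% of all genes; this block could not be fitted with the sex interaction. Of the 25 named tested members, 0 changed sign while called; the 21 uncalled changed sign in 19 of 651 refits, still uncalled. The interaction gave 0 members with DESeq2, limma-voom, sex by reads, RLE size factors, both other filters and each library left out; other alternatives were not run for it.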
